A study of Homo sapiens with 6 samples.

Results

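JAK1, JAK2, STAT2, STAT3, IRF1, IRF2, IRF7, IRF9 and SOCS3 carry, switch on or brake the signal that a cytokine or an interferon sends from the cell surface to the genome. These 9 genes were taken by name from an expression profile of MDA-MB-231 cells with and without a hairpin against DAXX. A gene was followed through the array's transcript cluster that is paired with its symbol and no other, and the brightest such cluster on average stood for a gene that had several. By that rule 7 of the 9 genes were measured, among 22465 genes measured in all. No cluster carried STAT2 alone, and IRF9 shared its only cluster with RNF31, so these 2 were not counted.

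In this pathway, a ligand such as interleukin 6 or an interferon brings receptor chains together, and Janus kinases (JAKs) bound to those chains phosphorylate the receptor and then STAT proteins, which pair, enter the nucleus and bind DNA. STAT pairs bind gamma activated sites, a complex that holds STAT2 and IRF9 binds interferon response elements, and interferon regulatory factors (IRFs) bind related GAAA repeats. Suppressors of cytokine signaling (SOCS proteins) are induced by STATs and shut the kinases and receptors off again.

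MDA-MB-231 cells are a long-established human line from a triple-negative breast tumor, one without estrogen, progesterone or HER2 receptors. A lentivirus carried 1 hairpin against the DAXX coding sequence, driven by the H1 promoter (shDAXX), or a scrambled hairpin (shControl), and stable lines were selected with puromycin. The cells were grown for 24 hours in complete DMEM, which contains serum, and 200 ng of total RNA per sample was hybridized to Affymetrix human transcriptome arrays, with 3 arrays for shDAXX and 3 for shControl. DAXX is a chaperone of histone H3.3 and a SUMO-binding regulator of transcription, and the comparison asks which transcripts differ when it is depleted. Since each group is 1 stably transduced line with 1 hairpin, an effect of DAXX loss and an effect of that line or hairpin cannot be told apart.

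DAXX itself had log2 signals of 6.69, 6.67 and 6.61 in the shDAXX arrays, against 7.49, 7.48 and 7.43 in the shControl arrays. All 3 shDAXX arrays lay below all 3 shControl arrays, 1.75-fold lower on average (log2 fold change -0.81, SE 0.060, limma adjusted p = 0.00049). Log2 signals are RMA values, which report brightness and not molecules, and a fold change is the shDAXX mean minus the shControl mean. Correlations between arrays ran from 0.9959 to 0.9965 within groups and from 0.9907 to 0.9922 between them. Of 6 genes that MDA-MB-231 cells express highly, all 6 lay above the median gene (list mean per array 14.34 to 14.42 in shDAXX and 14.56 to 14.60 in shControl), with 1 called higher and 3 called lower. The means of 7 leukocyte markers were 4.91 to 5.02 in shDAXX and 4.92 to 5.00 in shControl, and those of 6 fibroblast and endothelial markers 5.10 to 5.40 and 5.17 to 5.19, both beneath the median of 5.72 over all genes, with 1 marker of each list above it. PTPRC, a leukocyte marker, was lower (-0.29, limma adjusted p = 0.0268), and CDH5, an endothelial cadherin, was higher (0.37, adjusted p = 0.0366). Epithelial and hormone receptor genes listed as low in this line, 6 of them measured and 2 of these above the median gene, averaged 5.52 to 5.63 in shDAXX and 5.51 to 5.73 in shControl. The part of these differences in the results was not tested.

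Of the 7 measured regulators, 3 passed the test at an adjusted p below 0.05: JAK1 and IRF1 were higher in shDAXX cells and SOCS3 was lower. Over all 22465 genes, 2224 passed (9.90%), with 967 higher (4.30%) and 1257 lower (5.60%). With array medians made equal, the split of calls turned to 1195 higher and 1003 lower, and the 3 calls among the regulators kept their side. In 5 of the 7 genes the 3 shDAXX arrays did not overlap the 3 shControl arrays, which held for 28.7% of all genes. The fold changes were small: the median of their absolute log2 values was 0.29 (0.11 over all genes), and the signed median was -0.11 (0.007 over all genes). The largest was 0.49, while 220 of the called genes moved by at least 1. In RNA from a whole culture, fewer cells that express a gene and less of its RNA per cell cannot be told apart.

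**Figure D1:**
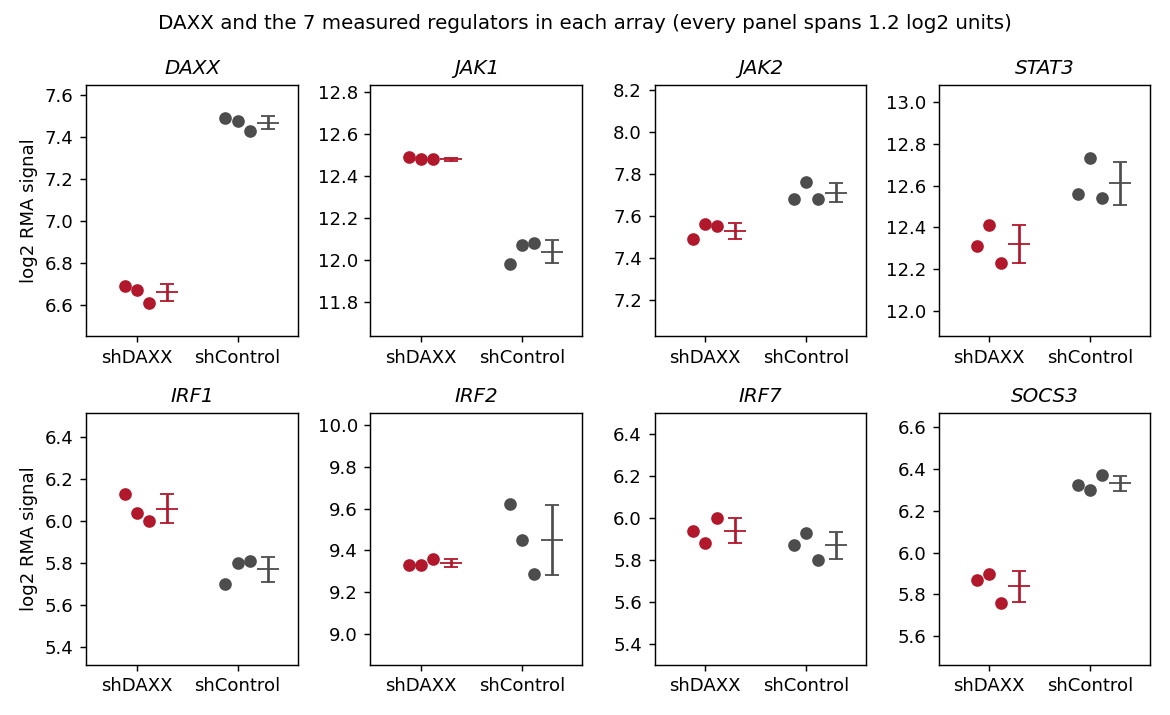
Log2 RMA signal (vertical axis) of DAXX and the 7 measured regulators in each of the 3 shDAXX and 3 shControl arrays. Points are arrays, the bars beside them show the mean ± SD (n = 3), and all panels have the same vertical span: DAXX, JAK1, JAK2, STAT3, IRF1 and SOCS3 have groups that do not overlap, while those of IRF2 and IRF7 do.

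Among the kinases, JAK1 is shared by the receptors of type I, II and III interferons and of the interleukin 6 family. Its log2 signals were 12.49, 12.48 and 12.48 in shDAXX cells, against 11.98, 12.07 and 12.08 in shControl cells. Every shDAXX array was at least 0.40 above every shControl array. The means of 12.48 ± 0.006 in shDAXX and 12.04 ± 0.055 in shControl (SD, n = 3) gave a log2 fold change of 0.44 (SE 0.060, 95% interval 0.30 to 0.58), or 1.36-fold, with a limma adjusted p of 0.00569. A change of this size or larger was found for 7.5% of all genes. The JAK1 gene lies on chromosome 1.

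JAK2 serves the receptors of interferon gamma, growth hormone and erythropoietin. It had 7.49, 7.56 and 7.55 in shDAXX cells, against 7.68, 7.76 and 7.68 in shControl cells. The shDAXX arrays lay below the shControl arrays by at least 0.12, and yet the fold change of -0.17 (SE 0.061, 95% interval -0.32 to -0.03) did not pass after adjustment over all genes (limma adjusted p = 0.142). As large a change was found for 34.3% of genes.

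STAT3, the factor that interleukin 6, interleukin 11 and LIF activate, stood close to the threshold. Its signals were 12.31, 12.41 and 12.23 in shDAXX cells, against 12.56, 12.73 and 12.54 in shControl cells. All 3 shDAXX arrays lay below the shControl arrays, by at least 0.13. The log2 fold change was -0.29 (SE 0.082, 95% interval -0.49 to -0.10) with a limma adjusted p of 0.0735, and it passed with dim genes left out of the test (adjusted p = 0.0397) or with a trend and robust variance (adjusted p = 0.0385).

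IRF1 is a transcription factor that interferon gamma induces, and it activates antigen presentation and guanylate-binding protein genes. Its log2 signals were 6.13, 6.04 and 6.00 in shDAXX cells, against 5.70, 5.80 and 5.81 in shControl cells. The lowest shDAXX array was 0.19 above the highest shControl array. The fold change was 0.29 on the log2 scale (SE 0.068, 95% interval 0.13 to 0.45), or 1.22-fold, with a limma adjusted p of 0.0442. This call was close to the threshold: without any 1 of the 6 arrays, shDAXX or shControl, the adjusted p was 0.0841 to 0.135, while the log2 fold change over all alternatives stayed between 0.25 and 0.33. The gene lies on chromosome 5, and its signal was near the median of all genes, in the 52.2 percentile.

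The start of IRF1 is shown because it holds a match to the gamma activated site that STAT pairs bind. RefSeq's window for the gene on GRCh38.p14, from 250 bases before to 50 bases after the start, is chr5:132490724-132491023 on the minus strand. Read 5′ to 3′ along the gene, the capitals mark the letters TTCNNNGAA, which run from 124 to 116 bases before the start.
IRF1: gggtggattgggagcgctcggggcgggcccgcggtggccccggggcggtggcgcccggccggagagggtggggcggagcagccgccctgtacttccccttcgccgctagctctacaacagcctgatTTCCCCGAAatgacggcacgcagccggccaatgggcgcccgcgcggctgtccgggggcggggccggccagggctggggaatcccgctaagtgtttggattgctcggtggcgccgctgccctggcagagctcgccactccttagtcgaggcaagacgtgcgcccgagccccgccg

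Of the same length, 7.66% of all 35116 RefSeq promoter windows hold this form. The IRF element GAAANNGAAA, in 3.57% of all windows, was not matched in the IRF1 window, and neither was the kappa B form GGGNNNTTCC, in 6.52%. Other forms of the kappa B site were not searched, and a window without this form may hold another. Both strands were searched. A match is a set of letters and no evidence that a factor bound there in these cells.

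IRF2, which competes with IRF1 for the same elements, had the widest spread within a group among the 7 genes. Its signals were 9.33, 9.33 and 9.36 in shDAXX cells, against 9.62, 9.45 and 9.29 in shControl cells, so the shControl arrays spanned all the shDAXX values. The fold change was -0.11 (SE 0.091, 95% interval -0.33 to 0.10, limma adjusted p = 0.529). IRF7, the factor that amplifies the type I interferon response, had 5.94, 5.88 and 6.00 in shDAXX cells, against 5.87, 5.93 and 5.80 in shControl cells. These groups overlapped as well, with a fold change of 0.07 (SE 0.068, 95% interval -0.09 to 0.23, limma adjusted p = 0.589). The cluster that IRF9 shares with RNF31 had 7.00, 7.02 and 6.85 in shDAXX cells, against 6.99, 7.02 and 7.05 in shControl cells, and its signal cannot be assigned to either gene.

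SOCS3, which blocks JAK1 and JAK2 at the interleukin 6 receptor chain gp130, had the largest fold change of the 7 genes on the deposited scale, while JAK1 had the larger one after quantile normalization (0.49 for JAK1, -0.45 for SOCS3) or with equal array medians (0.48 and -0.45), and without shDAXX replicate 3 they were level (0.44 and -0.44). Its log2 signals were 5.87, 5.90 and 5.76 in shDAXX cells, against 6.32, 6.30 and 6.37 in shControl cells. All 3 shDAXX arrays lay below all 3 shControl arrays. The means of 5.84 ± 0.074 in shDAXX and 6.33 ± 0.036 in shControl gave a log2 fold change of -0.49 (SE 0.066, 95% interval -0.64 to -0.33), or 1.4-fold lower, with a limma adjusted p of 0.00542. It passed in all 15 alternative analyses, at adjusted p values of 0.00232 to 0.045, whereas JAK1 passed in 14. As large a change was found for 5.97% of genes. The SOCS3 signal was near the median of all genes, in the 54.1 percentile, and that of JAK1 was in the 95.7 percentile.

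RefSeq gives SOCS3, on chromosome 17, a pair of start windows. The one at chr17:78359618-78359917 on the minus strand is shown because it is the only window of a measured regulator, beside that of IRF1, with a match to any of the 3 forms. The capitals mark the kappa B form, which runs from 5 bases before to 5 bases after the start.
SOCS3: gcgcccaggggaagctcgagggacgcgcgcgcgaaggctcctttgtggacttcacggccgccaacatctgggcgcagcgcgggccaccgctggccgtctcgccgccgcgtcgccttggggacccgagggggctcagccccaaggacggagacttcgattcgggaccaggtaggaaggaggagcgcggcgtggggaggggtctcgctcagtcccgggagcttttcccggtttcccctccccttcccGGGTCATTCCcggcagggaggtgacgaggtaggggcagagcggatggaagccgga

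Windows were at hand for 5 of the 7 measured genes, 11 windows in all. The 3 windows of JAK1, the 4 of JAK2, the 1 of STAT3 and the other one of SOCS3 held none of the 3 forms. No window of a measured regulator held the IRF element.

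Ordered by fold change, the genes ran JAK1, IRF1, IRF7, IRF2, JAK2, STAT3 and SOCS3. The differences between neighbours in that order were 0.06 to 0.21 on the log2 scale, and in each of the 6 neighbouring pairs the 95% intervals overlapped. Overlap of intervals does not decide whether neighbours in the order differ, and the differences were not tested. Within families the signs were mixed: JAK1 was at 0.44 and JAK2 at -0.17, and IRF1 was at 0.29, IRF7 at 0.07 and IRF2 at -0.11.

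**Figure D2:**
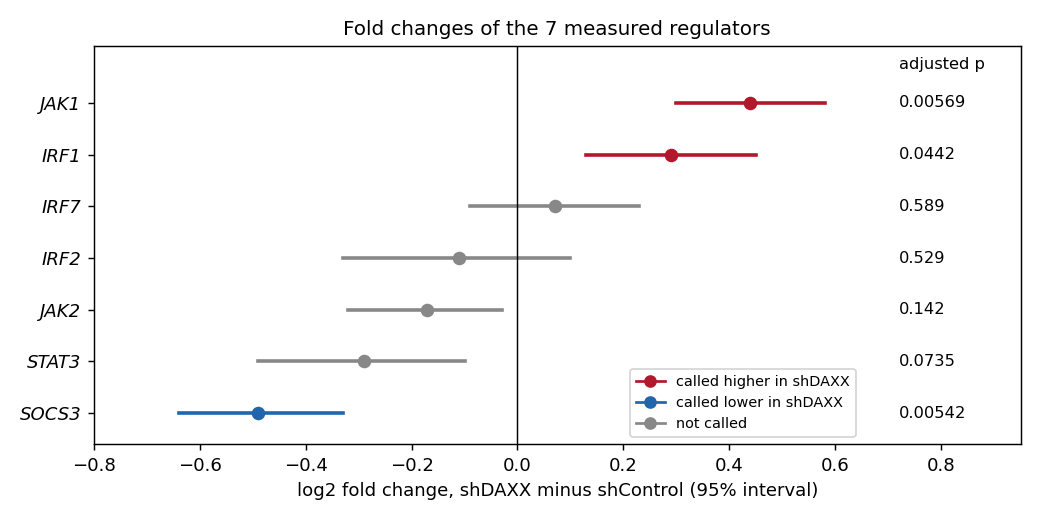
Log2 fold change, shDAXX minus shControl (horizontal axis), of the 7 measured regulators, with the 95% interval as a line and the limma adjusted p at the right. JAK1 at 0.44 and IRF1 at 0.29 are called higher, SOCS3 at -0.49 is called lower, and the intervals of JAK2 and STAT3 leave out 0 without passing the adjusted threshold.

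The genes around the regulators in the pathway were examined by role, in 9 lists with 154 of 163 genes measured. Of these 32 were higher and 16 lower in shDAXX cells (31.2%, against 9.90% of all genes), and 28 of the 48 kept the call without any 1 of the 6 arrays. The lists were chosen with earlier results of these data known, and the 9.90% covers dim genes as well. These shares are therefore a description and no test of the lists. Among 14 ligands, 2 were higher and 2 lower, with a median log2 fold change of 0.11, which was 0.23 without shDAXX replicate 2 and 0.03 without shDAXX replicate 3. IL6 had 8.99, 9.17 and 8.98 in shDAXX cells, against 6.99, 6.98 and 7.03 in shControl cells. Every shDAXX array was at least 1.95 above every shControl array, with a mean difference of 2.05 (SE 0.073, limma adjusted p = 2.2e-05), or 4.13-fold. CSF3, the neutrophil growth factor G-CSF, rose by 1.45 (SE 0.120, adjusted p = 0.00081). Among other ligands of the gp130 family, IL11 was lower, at a log2 fold change of -0.55 (SE 0.063, adjusted p = 0.00289), and so was LIF, at -0.74 (SE 0.152, adjusted p = 0.0273), while OSM at 0.12 (adjusted p = 0.619) and CTF1 at -0.42 (adjusted p = 0.216) did not pass. The LIF call was lost without any array other than shDAXX replicate 1, at adjusted p values of up to 0.0722.

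Of 26 receptor chains that bind JAKs, 6 were higher and 2 lower, with a median of 0.07. Without any 1 array, 4 of the 8 calls held, all of them higher. Adjusted over every transcript cluster, 3 were higher and 0 lower. IL6ST, which encodes the gp130 chain that JAK1 sits on, had 14.96, 15.00 and 14.97 in shDAXX cells, against 14.19, 14.12 and 14.05 in shControl cells. The groups were far apart, with a log2 fold change of 0.86 (limma adjusted p = 0.0005, SE 0.064). IFNGR1, the ligand-binding chain of the interferon gamma receptor, had 9.98, 9.92 and 10.04 in shDAXX cells, against 9.27, 9.32 and 9.28 in shControl cells (log2 fold change 0.69, SE 0.062, limma adjusted p = 0.00109). LIFR, the partner of gp130 for LIF, was lower at -0.37 (adjusted p = 0.0156), and so was IL13RA1, a chain for interleukins 4 and 13, at -0.29 (adjusted p = 0.0387). The LIFR call was lost without shControl replicate 1 or 2 or shDAXX replicate 2 or 3 (adjusted p up to 0.0573), and that of IL13RA1 without any 1 array (0.0798 to 0.118).

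Of the 6 other JAK and STAT genes measured, 0 passed in limma's default fit or with the methods' t-test, 1 had an unadjusted p below 0.05, and their median was 0.03. In limma with dim genes left out, quantile normalization, or trend and robust variance, 1 was called lower. STAT5B came closest, with 8.21, 8.30 and 8.30 in shDAXX cells and 8.50, 8.66 and 8.50 in shControl cells (log2 fold change -0.28, limma adjusted p = 0.0563), and JAK3 had a fold change of 0.09 (adjusted p = 0.435). STAT5B is also among the 10 nearest neighbours of STAT3 on chromosome 17, which are described below. Of 7 other IRF genes and IRF2-binding proteins, 1 was lower, IRF2BPL, at -0.59 (limma adjusted p = 0.0410), and that call was lost without any array other than shControl replicate 2 (adjusted p up to 0.12).

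The brakes on the pathway, 17 measured genes of the SOCS family, phosphatases and other inhibitors, had 5 genes lower and 2 higher, with a median of -0.07. Without 1 array, 2 to 5 were lower and 0 to 1 higher, and 2 of the 7 calls, SOCS2 and CBL, held each time. SOCS2, which restrains growth hormone signaling, had 7.05, 7.10 and 6.91 in shDAXX cells, against 7.95, 8.07 and 7.89 in shControl cells. The groups were far apart, at a log2 fold change of -0.95 (limma adjusted p = 0.00089, SE 0.081), beside -0.49 for SOCS3, and the difference between these genes was not tested. CBL, a ubiquitin ligase of activated receptors, fell by 0.44 (SE 0.060, adjusted p = 0.0054). The phosphatases PTPN11 (SHP2) and PTPN2 (TC-PTP) were higher, at 0.35 (adjusted p = 0.0312) and 0.31 (adjusted p = 0.0356). The other falls were those of PTPN1 (-0.49), SOCS7 (-0.43) and USP18 (-0.33). The SOCS7 and USP18 calls were lost without any array other than shControl replicate 3 (adjusted p up to 0.0768 and 0.0737), and that of PTPN1 without shControl replicate 1 or 2 or shDAXX replicate 1 or 3 (up to 0.0738). The PTPN2 call was lost without any 1 array (adjusted p 0.063 to 0.107), and that of PTPN11 without any array other than shDAXX replicate 2 (up to 0.103).

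Upstream of the IRFs, 14 nucleic acid sensors, adaptors and kinases had 2 genes higher and 1 lower, with a median of 0.00. IKBKE, which encodes the kinase IKK epsilon that phosphorylates IRF3 and IRF7, had 7.89, 7.93 and 7.78 in shDAXX cells, against 6.69, 6.87 and 6.79 in shControl cells. The groups did not overlap and the log2 fold change was 1.08 (SE 0.076, limma adjusted p = 0.00038). TRAF3, an adaptor of the same route, was higher by 1.06 (SE 0.122, adjusted p = 0.00287). TRAF6, an adaptor of Toll-like receptors, was lower at -0.26 (adjusted p = 0.0405), a call that was lost without any 1 array (0.074 to 0.124).

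Downstream, 27 targets of the STAT2 and IRF9 complex had 10 genes higher and 1 lower, with a median of 0.24. IFI27 had 8.87, 9.25 and 8.89 in shDAXX cells, against 5.83, 6.59 and 5.89 in shControl cells, a log2 fold change of 2.90 (limma adjusted p = 0.00049, SE 0.215). Both groups had their highest value in replicate 2. MX1, a GTPase that blocks influenza virus, had 6.01, 5.95 and 6.12 in shDAXX cells, against 5.51, 5.53 and 5.58 in shControl cells (log2 fold change 0.49, SE 0.069, adjusted p = 0.00635). OAS1, which makes the activator of RNase L, went the other way, with 5.64, 5.61 and 5.68 in shDAXX cells and 6.12, 6.03 and 6.12 in shControl cells (log2 fold change -0.45, SE 0.062, adjusted p = 0.00583). In this list 6 of the 11 calls held without any 1 array.

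Of 24 targets of IRF1 and interferon gamma, 9 were higher and 1 lower, with a median of 0.29, and 8 of the 10 calls held without any 1 array. ICAM1, an adhesion molecule for leukocytes, had 11.51, 11.84 and 11.70 in shDAXX cells, against 8.22, 8.29 and 7.91 in shControl cells. Its log2 fold change of 3.54 (limma adjusted p = 2.2e-05, SE 0.127) was the highest in any of the 9 lists. GBP4, a guanylate-binding protein, had 8.43, 8.42 and 8.42 in shDAXX cells, against 6.91, 6.75 and 6.61 in shControl cells (log2 fold change 1.67, SE 0.086, adjusted p = 0.00011). CD274, which encodes the checkpoint ligand PD-L1, was the exception, with 9.18, 9.21 and 9.47 in shDAXX cells and 9.85, 10.01 and 10.09 in shControl cells (log2 fold change -0.70, SE 0.104, adjusted p = 0.0079). ICAM1 and others of this list are also targets of NF-kappa B, so a place in a list does not show which factor acted.

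Of 19 targets of STAT3, 3 were lower and 1 higher, with a median of 0.05. MCL1, which protects mitochondria from apoptosis, had 13.13, 13.18 and 13.05 in shDAXX cells, against 13.82, 14.02 and 13.81 in shControl cells. No array of one group reached the other, and the log2 fold change was -0.76 (SE 0.081, limma adjusted p = 0.00205). HIF1A, the oxygen-regulated transcription factor, fell by 0.67 (SE 0.071, adjusted p = 0.00206). LCN2, an iron-scavenging lipocalin, was higher at 0.71 (SE 0.133, adjusted p = 0.0187), a call lost without shDAXX replicate 1 or any shControl array (adjusted p up to 0.069).

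**Figure D3:**
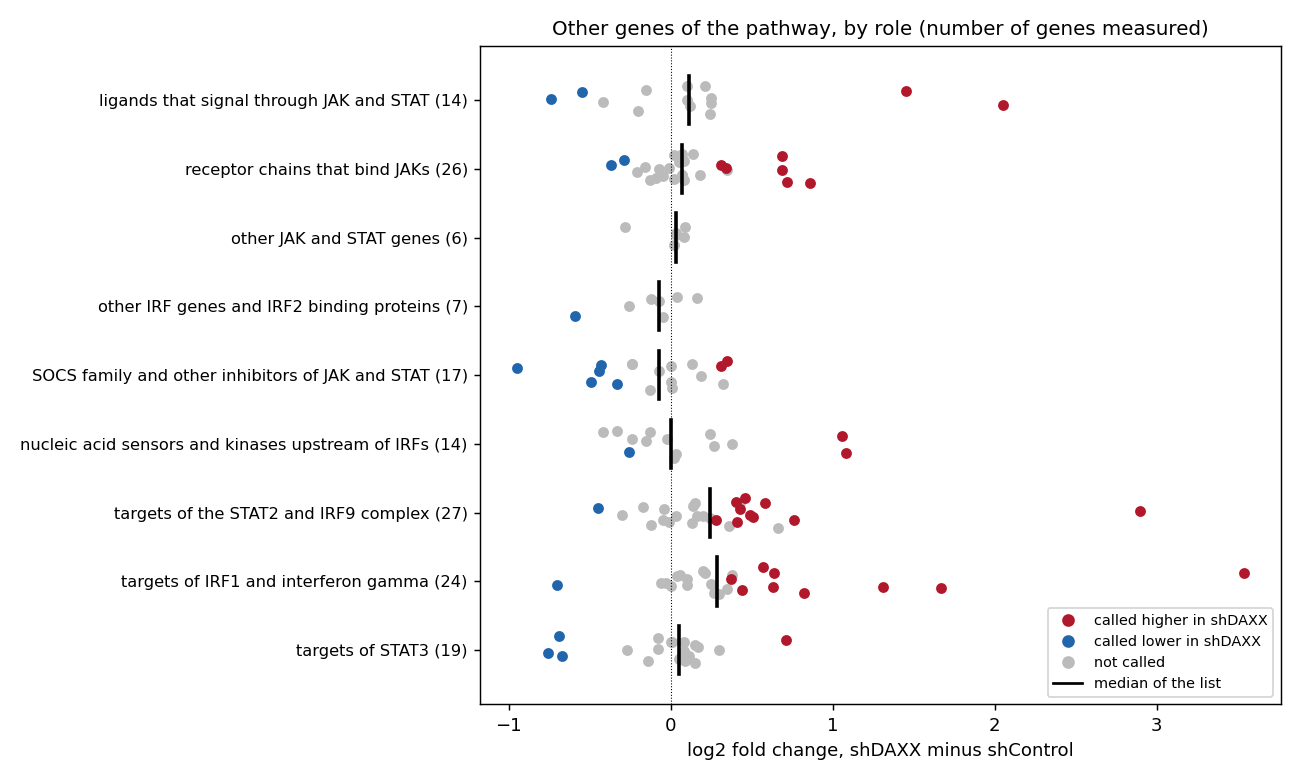
Log2 fold change, shDAXX minus shControl (horizontal axis), of each measured gene in 9 lists ordered from ligands to targets, with black lines at the medians. The medians of the interferon target lists are 0.24 and 0.29, those of the other 7 lists lie between -0.07 and 0.11, and ICAM1 at 3.54, IFI27 at 2.90 and IL6 at 2.05 stand farthest to the right.

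Genes next to the regulators on the chromosome were compared as well, counting tested protein-coding genes in RefSeq order. STAT3 lies on chromosome 17 between STAT5A and CAVIN1. Of its 10 nearest neighbours, 5 on each side, 3 were lower and 0 higher (5 and 0 at an unadjusted p below 0.05), at a median log2 fold change of -0.21. The 3 were CAVIN1, a coat protein of caveolae, at -0.54 (limma adjusted p = 0.00954), the proton pump subunit ATP6V0A1 at -0.54 (adjusted p = 0.0166), and COASY, the last enzyme of coenzyme A synthesis, at -0.78 (adjusted p = 0.00502), and all lay on the CAVIN1 side. With 25 genes on each side, a width chosen after seeing the data, 16 of 50 neighbours were lower and 0 higher (background 5.60% lower and 4.30% higher), 6 of 25 on the STAT5A side and 10 of 25 on the CAVIN1 side, with a median of -0.20. A stretch of shifted genes near STAT3 was known from these data beforehand, so these counts are a description. At an unadjusted p below 0.05 there were 25 lower and 1 higher. Over all 22465 genes, 5310 had an unadjusted p below 0.05 in either direction, which is the background for every such count of neighbours. The count of lower neighbours was 11 to 13 without 1 array and 11 with the methods' t-test.

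Around JAK1, 3 of 10 genes were higher, AK4 at 0.61, ROR1 at 0.42 and CACHD1 at 0.41, and 1 was lower, DNAJC6 at -0.47, while the wider window had 3 higher and 5 lower of 50. Around IRF1, 3 of 10 were higher, P4HA2 at 0.67, SLC22A4 at 0.65 and RAD50 at 0.47, with 0 lower (4 and 0 at an unadjusted p below 0.05), and in the wider window 6 were higher and 1 lower of 50. Around SOCS3, also on chromosome 17, 1 of 10 was higher, CYTH1 at 0.29, and 2 were higher and 1 lower of 50. Without 1 array, 0 of the 10 passed with limma (2 had an unadjusted p below 0.05 over all arrays), and of the 50, 0 to 1 were higher and 0 lower. Around IRF2, 1 of 10 was lower, TRAPPC11 at -0.29, a call lost without any 1 array, and 5 were lower and 1 higher of 49. Around IRF7, 2 were higher of 46, and around JAK2, 1 was higher and 3 were lower of 44, none of them among the nearest 10.

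**Figure D4:**
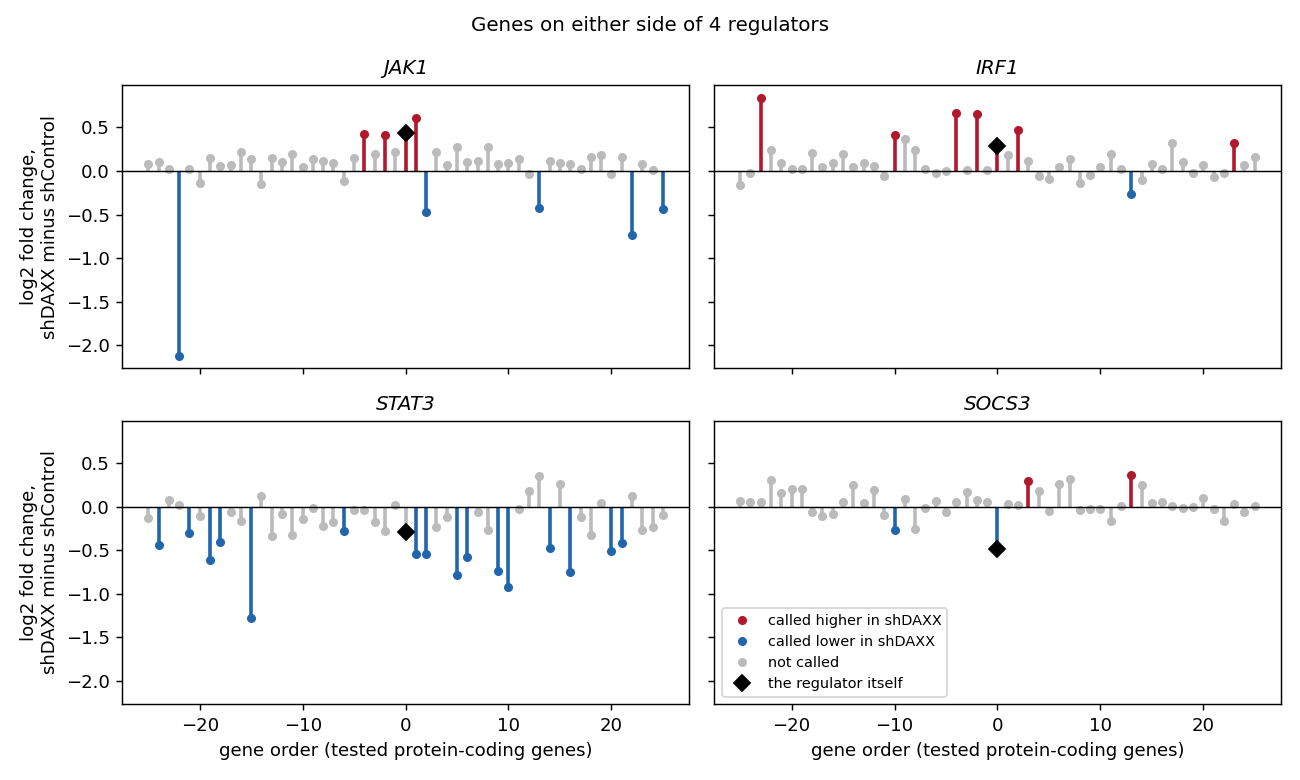
Log2 fold change, shDAXX minus shControl (vertical axis), of up to 25 tested protein-coding genes on each side of JAK1, IRF1, STAT3 and SOCS3, in chromosome order (horizontal axis), with the regulator as a black diamond at 0. Around STAT3 16 genes are called lower and 0 higher, and around SOCS3 1 is called lower and 2 higher.

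The genes whose values over the 6 arrays were most like those of SOCS3 were HERC3 (Pearson r = 0.9982), IL11 (r = 0.9972) and ACAD11 (r = 0.9971). IL11 had 8.27, 8.28 and 8.19 in shDAXX cells, against 8.77, 8.76 and 8.85 in shControl cells. For JAK1 they were IRAK2 (r = 0.9991), CASK (r = 0.9989) and TSPAN14 (r = 0.9985). IRAK2, a kinase of the interleukin 1 receptor route, had 9.71, 9.56 and 9.64 in shDAXX cells, against 7.66, 8.03 and 8.01 in shControl cells. These correlations are a description over 6 arrays that share the split into shDAXX and shControl, and 639 genes had an r over 0.95 with SOCS3 and 641 with JAK1.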

How the data were processed

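The deposited values are log2 RMA signals, which the authors made from array image intensities by correcting the background, normalizing between arrays and summarizing the probes of each transcript cluster. Affymetrix Expression Console is the tool that the submitters' processing notes give. A ComBat correction of arrays run at separate times is part of the study's methods, which do not say whether these 6 arrays received it. If they did, the spread within groups may be understated. RMA compresses fold changes near background.

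Of 70523 rows, 67528 were transcript clusters, 23781 of them paired with 1 symbol, which gave 22465 genes. The build of the array's annotation is not stated there. Differences of shDAXX from shControl were fitted by limma 3.58.1 (R 4.3.3; lmFit, then eBayes; two-sided and without covariates), with Benjamini-Hochberg adjustment over all genes, a threshold of 0.05, and moderated SEs. The p-values measure the spread between 3 arrays per group, described as biological replicates, and their number limits the precision. The fit was tested on simulated data with independent noise, which held no effect of a line or batch. The 9 genes and the gene lists, written from general knowledge, were chosen with earlier results of these data known. Each list gave its names by smallest p, up to 2 called genes per direction or, without a call, the first 2. DAXX, called genes among the 10 nearest neighbours and the genes most like a regulator were also named. Promoter windows are RefSeq's, on GRCh38.p14. Alternatives left out dim genes, tested every transcript cluster, averaged the clusters of a gene, normalized by quantiles, equalized array medians, blocked on replicate number, used trend and robust variance, weighted arrays, used the methods' t-test or left out each array.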

Additional observations from a re-analysis of the deposited data

How the results depend on the processing

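SOCS3 and DAXX passed in all 15 alternative analyses that give an adjusted p, JAK1 in 14, IRF1 in 6 and STAT3 in 2, and no regulator changed direction in any of them. Adjusted over every transcript cluster, more rows than in the gene table, 308 genes were higher and 494 lower, and 0 regulators were called higher with limma (adjusted p of 0.0524 for JAK1 and 0.192 for IRF1). With the replicate block, 606 genes and 1 regulator (JAK1) were higher, and the adjusted p of IRF1 was 0.109. Arrays with the same number had deviations that correlated at -0.091, 0.221 and 0.081, and 2 of 6 arrays correlated best with their own number, so the numbers were not taken to pair the samples. The methods' t-test after Benjamini-Hochberg gave 811 lower genes and 1 regulator higher, JAK1, while IRF1 did not pass (adjusted p = 0.0648). At that test's own thresholds of 1.3-fold and an unadjusted p of 0.05, JAK1 was again the 1 regulator higher, since IRF1 moved 1.22-fold. A filter on dim genes and the trend and robust variance each gave 2 regulators lower, SOCS3 and STAT3. Without 1 array, 515 to 609 genes were higher and 722 to 857 lower, and 1 regulator (JAK1) was higher each time. The causes were not tested where none is named. Over the lists and alternatives, 8 of 144 medians and 77 of 288 counts of calls moved past the limit set for them. With 3 arrays per group, signals near background and genes that share a cluster limit what can be measured.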
